A study of Homo sapiens with 6 samples.

Results

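The HOX genes of the 4 human clusters HOXA, HOXB, HOXC and HOXD were followed in END-seq peak lists from camptothecin-treated cells. The members were taken by gene symbol and not by their measured values, though earlier results of these data were known at that time. They comprised 38 of the 20098 protein-coding genes annotated on chromosomes 1 to 22 and X. HOXA and HOXB contributed 10 genes each, and HOXC and HOXD contributed 9 genes each.

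The cells were HCT116, an established human colorectal carcinoma line, and END-seq is a method that ligates an adapter to blunted DNA ends and so reads out double-strand breaks (DSBs) at the base where they end. Camptothecin (CPT) traps topoisomerase I on cleaved DNA, and the study asked where breaks appear after short exposures. Cells were exposed to 10 µM CPT for 10 min (group CPT10) or 20 min (group CPT20), with 2 replicates per time, and a further group, Ctrl, received no drug. The titles of the 20 min samples carry the number 20 with a concentration unit, whereas the protocol gives 10 µM for both times, and the protocol was followed here. Murine pre-B cells were added to all of the 6 samples as a spike-in. All libraries came from 1 line, and peak lists of the Ctrl group were not analysed here. The comparisons below therefore set HOX regions against other regions of the same treated libraries, and they do not measure how far CPT moved a value from the untreated state.

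HOX genes encode homeodomain transcription factors that pattern the embryo from head to tail. They lie in compact clusters and are expressed in an order that follows their position, anterior paralogs at the 3' end and posterior paralogs at the 5' end of each cluster. In cells that do not use them they are classical targets of Polycomb repression, opposed by Trithorax and MLL complexes, and differentiated and cancer cells keep part of each cluster active.

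Each treated library was represented by separate peak lists for the strands, 8 lists in all, since the broken end to the left of a DSB is read as a reverse-strand peak and the end to its right as a forward-strand peak. The 4 libraries held between 575098 and 1418625 peaks, of which 109 to 324 had their summit in a HOX cluster, and the fragment height expected by chance, recovered from the deposited values, ranged from 0.727 to 1.44 among the lists. CPT20 replicate 2 was the shortest list set, so its values carried the widest intervals. Nothing in the files ties the replicates to separate cultures beyond the study's own description, and the p-values measure the spread between these libraries. Means over libraries gave each library equal weight. Counting intervals and tests on peaks covered counting error only. Across the genome 10.9% to 17.4% of all 120 kb windows passed an unadjusted p of 0.05 in the same binomial test, so a single library's p was read against that share.

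A cluster was the union of its members' bodies extended by 5 kb on each side, and its flanks were the 1 Mb on either side. On hg19, HOXA lay at chr7:27134973-27244710, HOXB at chr17:46600888-46811112, HOXC at chr12:54327615-54454814 and HOXD at chr2:176952449-177060635. The genes of HOXA and HOXB are on the minus strand and those of HOXC and HOXD on the plus strand. Within HOXB, 81.19 kb between the windows of HOXB7 and HOXB13 belonged to no member and counted in neither the cluster nor its flanks. GC content was 50.7% to 52.5% in the clusters and 39.0% to 46.1% in the flanks, and its part in the results was examined only as an alternative weighting.

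The following 3 stretches lay at a recurring reverse peak and at the replicated break sites of the HOX clusters. All are shown on the plus strand of hg19, read from the GRCh37 assembly. The first was the HOX position whose summit was most alike in all 4 libraries, a reverse peak in an intron of HOXC6 just past the 3' end of HOXC9 (chr12:54397344-54397543), selected after its values were seen, with the span of the 4 summits in capitals. The others were the reverse sides of the only HOX sites found in both replicates, in introns of HOXB9 and HOXB7 at 10 min (chr17:46701258-46701457) and of HOXB3 at 20 min (chr17:46656500-46656655), with the summit of replicate 2 and 9 bases on each side in capitals. The reverse summits of replicate 1, at 46701130 and 46656472, lay outside the HOXB stretches. No stretch held an annotated exon.
HOXC9 downstream: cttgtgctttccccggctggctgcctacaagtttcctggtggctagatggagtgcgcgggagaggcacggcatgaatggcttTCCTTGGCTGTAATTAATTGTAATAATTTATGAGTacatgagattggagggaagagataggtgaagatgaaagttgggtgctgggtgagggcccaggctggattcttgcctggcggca
HOXB9 intron: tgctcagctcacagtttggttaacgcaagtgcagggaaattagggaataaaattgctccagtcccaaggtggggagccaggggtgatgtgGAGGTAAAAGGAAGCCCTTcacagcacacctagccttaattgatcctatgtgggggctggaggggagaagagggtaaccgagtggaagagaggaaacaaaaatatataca
HOXB3 intron: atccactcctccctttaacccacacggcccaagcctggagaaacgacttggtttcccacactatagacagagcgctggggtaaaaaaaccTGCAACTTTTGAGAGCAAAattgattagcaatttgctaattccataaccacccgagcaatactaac

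The peak density of the HOX clusters as a whole did not differ from that of their flanks beyond the spread between libraries. The log2 ratio of cluster over flank density averaged −0.07 ± 0.17 (SD, n = 4 libraries) over all clusters, and an exact sign-flip permutation test over libraries gave p = 0.625. Against the protein-coding genes of the flanks alone, with 5 kb added, the average was −0.24 (exact sign-flip p = 0.25). In the comparison with whole flanks, HOXC had the lowest ratio, HOXA the highest, and HOXB and HOXD lay between.

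HOXC, whose posterior members HOXC9 to HOXC13 and more anterior members HOXC4 to HOXC8 lie head to tail, held 51.2 and 26.0 peaks per 100 kb in the CPT10 replicates and 50.4 and 14.6 in the CPT20 replicates. Its flanks held 66.7 and 36.5 at 10 min and 61.0 and 23.3 at 20 min. HOXC was thus below its flanks in all 4 libraries, with a mean log2 ratio of −0.45 ± 0.17 (SD, n = 4) and an exact sign-flip p of 0.12, the smallest that 4 libraries allow. Of 23371 windows of 120 kb across the genome, 19.1% lay below their flanks in all 4 libraries, and 4.23% had a lower mean ratio than HOXC. HOXC was the lowest of the 4 clusters, so the share of 4.23% is not a test of it. No library passed the exact binomial test for HOXC after adjustment over 16 tests (adjusted p 0.199 to 0.346).

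HOXA held 58.3 and 35.5 peaks per 100 kb in the CPT10 replicates and 72.0 and 24.6 in the CPT20 replicates, against 46.6, 38.7, 44.7 and 20.0 in its flanks. It was above its flanks in 3 of 4 libraries. The mean log2 ratio was 0.30 ± 0.33 (SD, n = 4; exact sign-flip p = 0.25), and 15.7% of all 120 kb windows lay above their flanks in all 4 libraries, which HOXA did not. CPT20 replicate 1 alone passed the exact binomial test, with a 1.61-fold density (95% Clopper-Pearson interval 1.26 to 2.03, adjusted p = 0.00195). Without that library the mean log2 ratio of HOXA was 0.17.

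HOXB was the most densely covered cluster in absolute terms, with 78.3 and 66.6 peaks per 100 kb at 10 min and 108 and 38.0 at 20 min, and its flanks were as dense, at 95.9, 63.1, 95.8 and 40.8. Absolute densities, here and for single genes, were not corrected for regional copy number, unlike the ratios to the flanks. The mean log2 ratio of HOXB was −0.04 ± 0.20 (SD, n = 4; exact sign-flip p = 0.75). HOXD, in a gene-poor neighbourhood with 5 other protein-coding genes in its flanks, held 37.0, 31.2, 42.9 and 14.6 peaks per 100 kb against 42.8, 35.8, 35.3 and 18.8 in the flanks. Its mean log2 ratio was −0.12 ± 0.28 (SD, n = 4; exact sign-flip p = 0.5), and −0.51 against the protein-coding genes of the flanks alone (exact sign-flip p = 0.12, the smallest possible). The sign of both averages depended on the setting, as the closing part lists.

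Among the 6 pairs of clusters, HOXA minus HOXC gave the widest gap, 0.75 ± 0.29 on the log2 scale (SD, n = 4), positive in all 4 libraries. The gaps HOXA minus HOXD (0.42 ± 0.25), HOXB minus HOXC (0.42 ± 0.23) and HOXC minus HOXD (−0.33 ± 0.16) also had a single sign in all 4 libraries. Each of these pairs reached the smallest exact sign-flip p of 0.12, which became 0.188 after adjustment over the 6 pairs, so none passed the threshold of 0.05 and this design could not pass it.

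**Figure D1:**
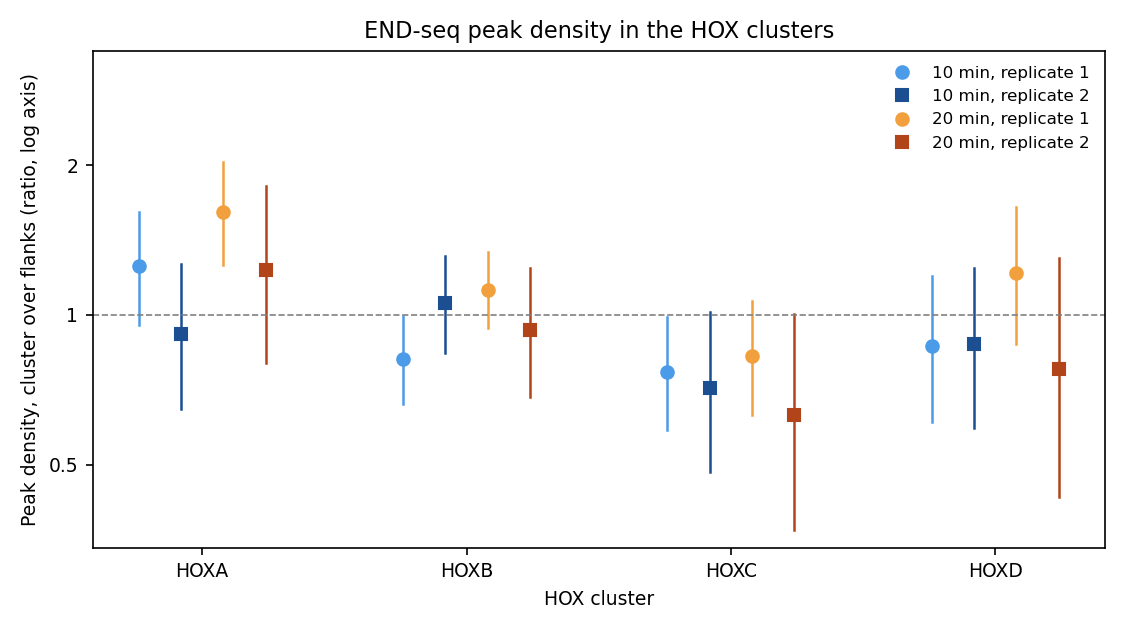
Ratio of peak density in each HOX cluster over its flanks (vertical log axis) for the 4 treated libraries, with bars for the 95% Clopper-Pearson interval. HOXC sits below 1 in all 4 libraries, while HOXA, HOXB and HOXD straddle 1.

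Exposure time did not separate the clusters. The log2 ratio over all clusters was −0.15 ± 0.04 in CPT10 and 0.01 ± 0.25 in CPT20 (SD, n = 2 each), a difference of 0.16 with p = 0.667 in an exact permutation test, which cannot go below 0.33 with 2 libraries against 2. HOXA showed the widest difference between times (0.39, exact permutation p = 0.667), from 0.10 ± 0.32 at 10 min to 0.49 ± 0.27 at 20 min. In HOXB the difference was 0.14, in HOXC −0.04 and in HOXD 0.16, each smaller than the largest SD within its times.

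No single HOX gene was called against its flanks in all 4 libraries. In exact binomial tests over all 20098 protein-coding genes with Benjamini-Hochberg adjustment per library, 0 of the 38 members were called in either direction. Over all genes, 1.2% were called higher and 0.408% lower, so 0 of 38 lies near the background. Small windows also limited the call. In CPT20 replicate 2 the HOXB1 window held 1 peak at a log2 ratio of −1.87, and its unadjusted exact binomial p was 0.0817. At an unadjusted p under 0.05, 3 and 2 members passed in the CPT10 replicates and 7 and 2 in the CPT20 replicates, while 21.4%, 13.9%, 24.2% and 16.6% of all protein-coding genes did. HOXA9 and HOXA6 were the members with an adjusted p under 0.05 in a single library, CPT20 replicate 1 (adjusted p 0.00754 and 0.0422), where 11.9% of all genes passed, and HOXA6 was chosen for naming after its values were seen.

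Direction alone was counted next, without a test. Of the 38 members, 5 lay above the expectation from their flanks in each of the 4 libraries and 8 lay below it, while 28.2% of all protein-coding genes lay above and 15.5% below. The members' mean log2 ratio had a median of −0.13 and ranged from −0.98 to 0.66, beside a median of 0.05 over all protein-coding genes. Each of the 38 windows held at least 1 peak in every library, and the highest number was 72, in the longest window, that of HOXB3. Many windows overlap, since HOXA3, HOXB3, HOXB7, HOXC6, HOXC4 and HOXD3 have long annotated bodies that span their neighbours, so members are not independent of each other.

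In the order of the paralog groups, the 7 anterior members (groups 1 to 3), which pattern the hindbrain, had a median log2 ratio of 0.02. The 15 central members (groups 4 to 8) had a median of −0.10 and the 16 posterior members (groups 9 to 13), which pattern the trunk end, limbs and urogenital tract, one of −0.17. The ranges of these classes overlapped widely, from −0.98 to 0.18, from −0.65 to 0.52 and from −0.54 to 0.66. By cluster, 0 of 9 HOXC members had a mean above 0, against 6 of 10 in HOXA, 5 of 10 in HOXB and 4 of 9 in HOXD. Among all protein-coding genes, 11088 of 20098 had a mean above 0. Members of a cluster share most of their flanks and some windows overlap, so these counts largely repeat the cluster ratios.

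HOXA9, a posterior factor with an established role in blood stem cells and leukaemia, had the highest mean peak density of the HOXA windows. It held 8.79 and 4.84 peaks per 10 kb in the CPT10 replicates and 10.6 and 2.64 in the CPT20 replicates, with log2 ratios over its flanks of 0.85, 0.30, 1.1595 and 0.33. All were above 0, and the mean was 0.66 ± 0.42 (SD, n = 4). HOXA10 was denser in CPT10 replicate 2 (5.09 peaks per 10 kb) and HOXA5 in CPT20 replicate 2 (6.33). HOXA13, the most 5' gene of the cluster and a factor of limb and hindgut, had the lowest mean density. It held 3.62, 3.01, 3.01 and 2.41 peaks per 10 kb, with a mean log2 ratio of −0.24 ± 0.34. HOXA4 lay close, with a mean of 3.06 peaks per 10 kb and a lower mean log2 ratio of −0.31.

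In CPT20 replicate 2 the HOXB4 window was the denser (7.01 peaks per 10 kb), but HOXB9, a posterior gene of HOXB, had the highest mean density of all members. It held 12.5 and 11.2 peaks per 10 kb at 10 min and 14.5 and 3.95 at 20 min. Against its dense flanks its log2 ratios were 0.39, 0.80, 0.56 and −0.03, and CPT20 replicate 2 stood apart as the library without an excess. HOXB7, whose long annotated body contains HOXB8 and HOXB9, gave 0.10, 0.56, 0.32 and 0.12 on the same log2 scale. HOXB1, the hindbrain gene at the 3' end of the cluster, had the lowest mean density of HOXB, and its 8, 3, 10 and 1 peaks gave log2 ratios of −0.53, −1.26, −0.26 and −1.87. These were all below 0, and none passed after adjustment (adjusted p from 0.394 to 0.911).

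HOXB3 and HOXB4, neighbours whose products act in the hindbrain and in blood progenitors, held 49, 44, 72 and 31 and 11, 12, 16 and 9 peaks in the 4 libraries. The log2 ratios of HOXB3 straddled 0, with a mean of 0.03 ± 0.26 (SD, n = 4). Those of HOXB4 were −0.14, 0.54, 0.35 and 0.75.

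In HOXC the highest mean density over the libraries was that of HOXC12 (2.85, 4.98, 6.40 and 2.13 peaks per 10 kb) and the lowest that of HOXC4 (6.11, 2.04, 3.67 and 1.02), an order that CPT10 replicate 1 turned around. By mean log2 ratio HOXC9 (−0.14) lay above HOXC12 (−0.18). HOXC4 was below its flanks in each library, by log2 ratios of −0.07, −0.78, −0.67 and −1.06. In HOXD, HOXD13, the most 5' gene and a regulator of digit formation, had log2 ratios of 0.29, 0.51, 0.71 and 0.25. HOXD10 had the lowest mean density of all members at 2.48 ± 0.90 peaks per 10 kb (SD, n = 4), with HOXD8 (2.4996) and HOXD11 (2.57) well within that SD. The HOXD10 log2 ratios were −0.79 and −0.85 at 10 min and 0.08 and 0.04 at 20 min.

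**Figure D2:**
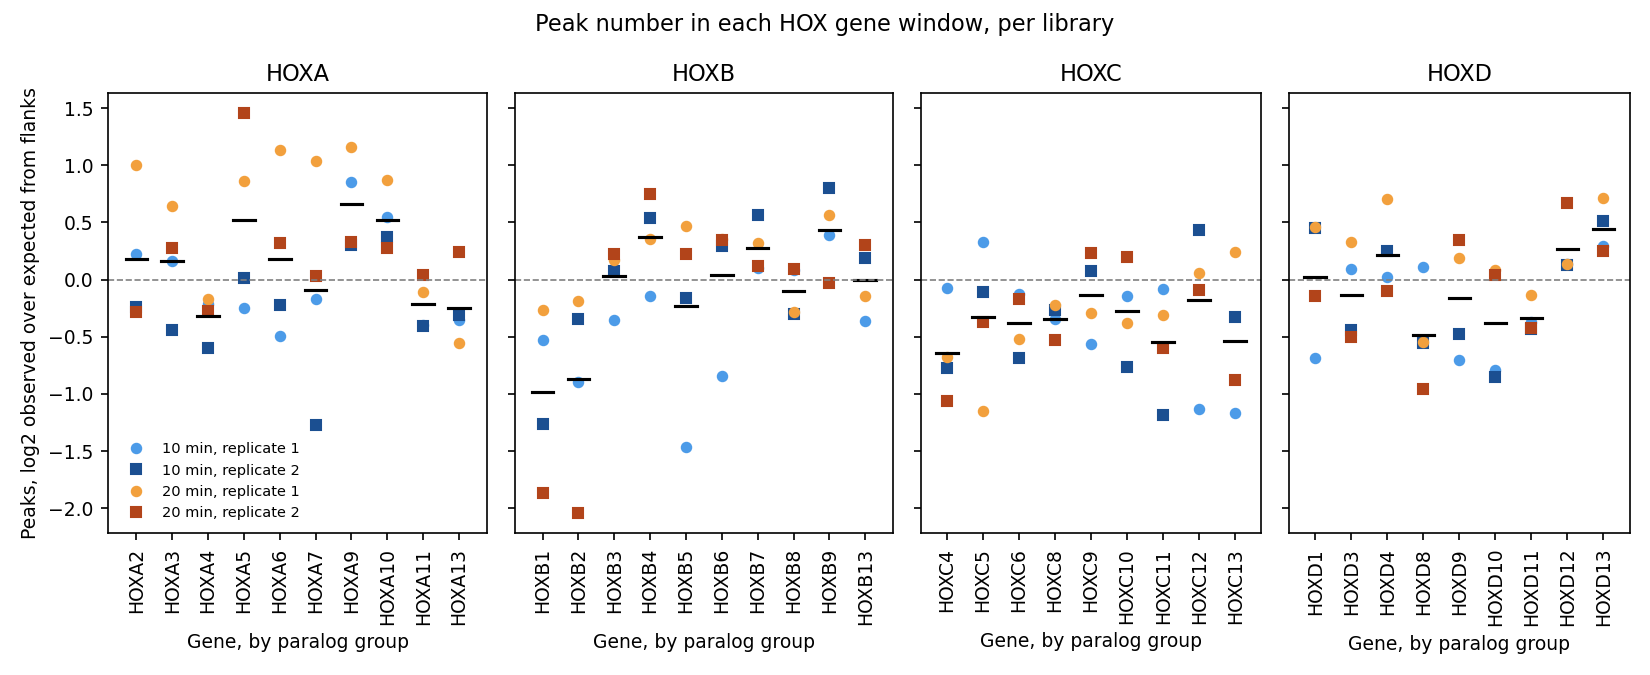
log2 ratio of observed peaks in each HOX gene window over the number expected from its flanks (vertical axis), with 1 point per library and a black bar for the mean of the 4 libraries, genes ordered by paralog group within each cluster. The bars of all 9 HOXC genes lie below 0, and the points of most genes fall on both sides of 0.

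Paired break sites were compared between the clusters and their flanks. A site was a reverse peak and the closest forward peak, overlapping or less than 150 bp downstream, and a replicated site was found in both replicates of a time. There were 4011 replicated sites in the genome at 10 min and 2924 at 20 min, and the HOX clusters held 1 at each time. The flanks held 40 and 32. Per Mb this was 2.15 in the clusters at either time against 5.00 in the flanks at 10 min and 4 at 20 min, and the ratios of 0.430 (95% Clopper-Pearson interval 0.0106 to 2.54, exact binomial p = 0.727) and 0.538 (0.0132 to 3.22, p = 1) were too wide at these counts to separate clusters from flanks. HOXA, HOXC and HOXD held no replicated site, and their flanks held 10, 8 and 2 at 10 min and 8, 7 and 1 at 20 min. These flanks measured 1992.639 to 2000 kb and the clusters 102.622 to 123.031 kb, so an empty cluster does not show a lower density.

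The site at 10 min spanned chr17:46701066-46702608, 1543 bp wide, in introns of HOXB9 and HOXB7, with its midpoint 1883 bp downstream of the 5' end of HOXB9. Its reverse side at replicate 2 is the HOXB9 stretch printed above. The reverse peak reached a −log10 q of 17.5 in CPT10 replicate 1 and 4.60 in replicate 2, and its forward partner 8.99 and 3.72. CPT20 replicate 1 also held a paired site there (46701840-46702713), and CPT20 replicate 2 held a reverse peak (−log10 q 15.8) with no forward partner, so the site counted as transient, that is, as replicated at 10 min and not at 20 min.

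The site at 20 min spanned chr17:46655925-46657787, 1863 bp wide, inside the HOXB3 body and just upstream of HOXB4, with its midpoint at −1144 bp from the 5' end of HOXB4. It also overlapped HOXB-AS3, an antisense transcript of the cluster. The forward peak reached a −log10 q of 22.3 in CPT20 replicate 1 and 6.70 in replicate 2, and the reverse peak 9.91 and 3.31. Both CPT10 replicates held a paired site within the same interval (46657395-46657557 and 46656806-46657287), but these did not overlap each other. The site therefore counted as late, that is, as replicated at 20 min and not at 10 min. The study gave classes of these names after testing normalised reads against control cells, which was not done here.

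By windows, 2 of the 38 members overlapped a replicated site at 10 min (HOXB7 and HOXB9) and 2 at 20 min (HOXB3 and HOXB4). Each pair shared a single site. Among all protein-coding genes the share was 11.5% at 10 min and 11% at 20 min, and among those with a window no longer than the longest HOX window (66.043 kb) it was 9.75% and 11.3%. In single libraries, the clusters together held 27 and 14 paired sites at 10 min and 38 and 6 at 20 min, at 0.906, 1.02, 1.21 and 1.13 times the density of their flanks. HOXB held 13, 12, 26 and 3 of them, and HOXD held 3, 0, 3 and 0.

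The strand on which peaks fell was compared between each cluster and its flanks. HOXC held 34 forward and 29 reverse peaks in the first CPT10 replicate and 22 forward and 10 reverse in the other. At 20 min it held 44 forward and 18 reverse peaks, then 14 and 4. Forward peaks made up 54.0%, 68.8%, 70.97% and 77.8% of its peaks, against 37.4%, 49.3%, 42.2% and 44.7% in its flanks. The cluster was shifted to forward peaks in all 4 libraries.

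Measured as the log2 of forward over reverse peaks in the cluster minus the same in its flanks, the strand balance of HOXC was 0.97, 1.18, 1.74 and 2.11, with a mean of 1.5 ± 0.52 (SD, n = 4; exact sign-flip p = 0.12, the smallest possible). The share of 120 kb windows shifted to forward peaks in all 4 libraries was 25.6%, and 4.77% of windows had a mean balance at least as far from 0 as HOXC. As HOXC lay furthest from 0 of the 4 clusters, the share of 4.77% is not a test of it. The shift lay in the reverse peaks, whose density was below the flanks by log2 ratios of −0.82, −1.19, −1.27 and −1.98, while the forward ratios were 0.15, −0.01, 0.47 and 0.13. Fisher's exact test within a library, added after these values were seen, gave adjusted p-values over 16 tests of 0.0447, 0.0908, 0.000161 and 0.0379, and 19% to 24.7% of all 120 kb windows passed an unadjusted p of 0.05 in that test.

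HOXB was shifted the other way in all 4 libraries, with balances of −0.76, −0.96, −0.23 and −0.25 (mean −0.55 ± 0.37, SD, n = 4; exact sign-flip p = 0.12), as were 25.2% of all windows. Of all 120 kb windows, 42.3% had a mean balance at least as far from 0 as HOXB. For HOXB, Fisher's exact test passed in CPT10 replicate 2 alone (adjusted p = 0.0379). The HOXD balances of 0.14, −1.16, −1.04 and −0.16 and the HOXA balances of 0.08, −0.08, 0.24 and −0.10 had no single sign. The same share of windows was 41.8% for HOXD and 96.1% for HOXA. Over all protein-coding genes, windows of plus-strand genes were shifted to forward peaks by 0.11 to 0.14 and those of minus-strand genes to reverse peaks by −0.13 to −0.09, relative to the whole lists. The HOXC genes are on the plus strand and the HOXB genes on the minus strand, and the plus-strand HOXD cluster averaged −0.55 ± 0.64. The part of gene orientation in these balances was not tested.

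**Figure D3:**
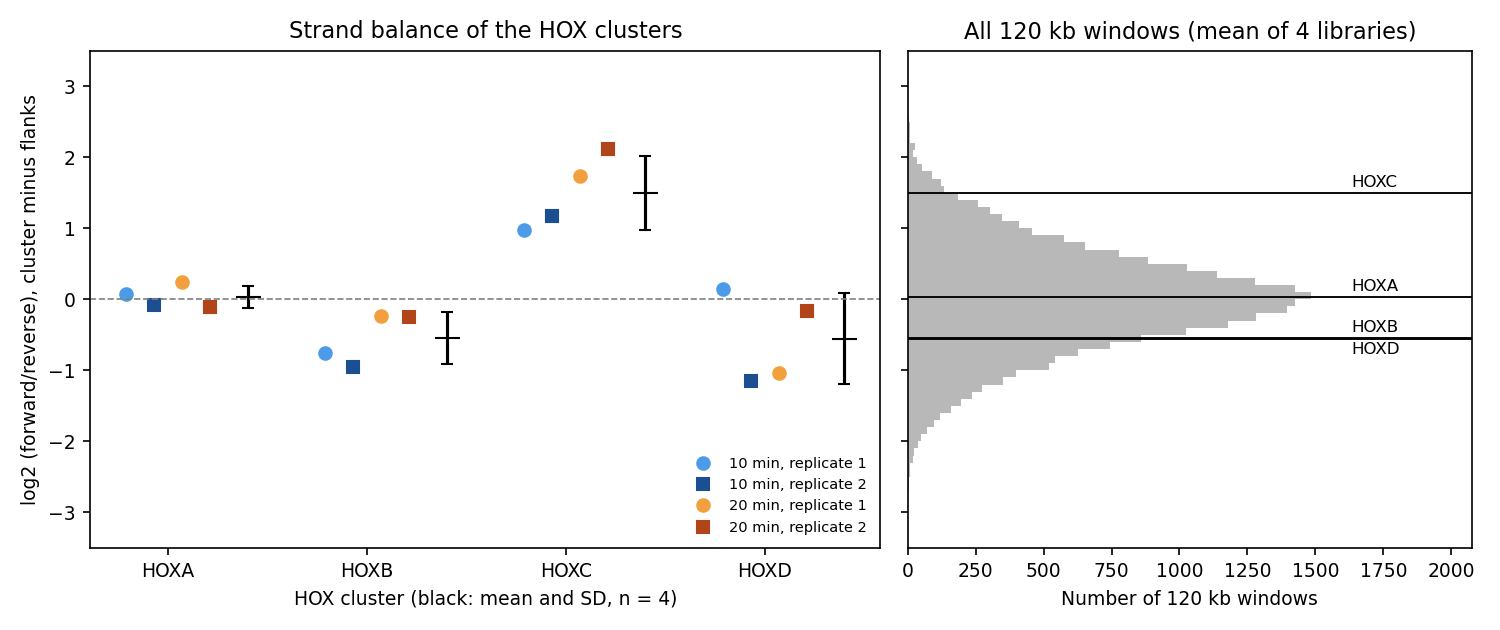
Left, strand balance of each HOX cluster (log2 of forward over reverse peaks, cluster minus flanks) per library, with mean and SD in black; right, number of 120 kb windows of the genome at each mean balance, with black lines at the cluster means. HOXC lies above 0 in all 4 libraries at a mean of 1.5, and HOXB lies below 0 in all 4.

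**Figure D4:**
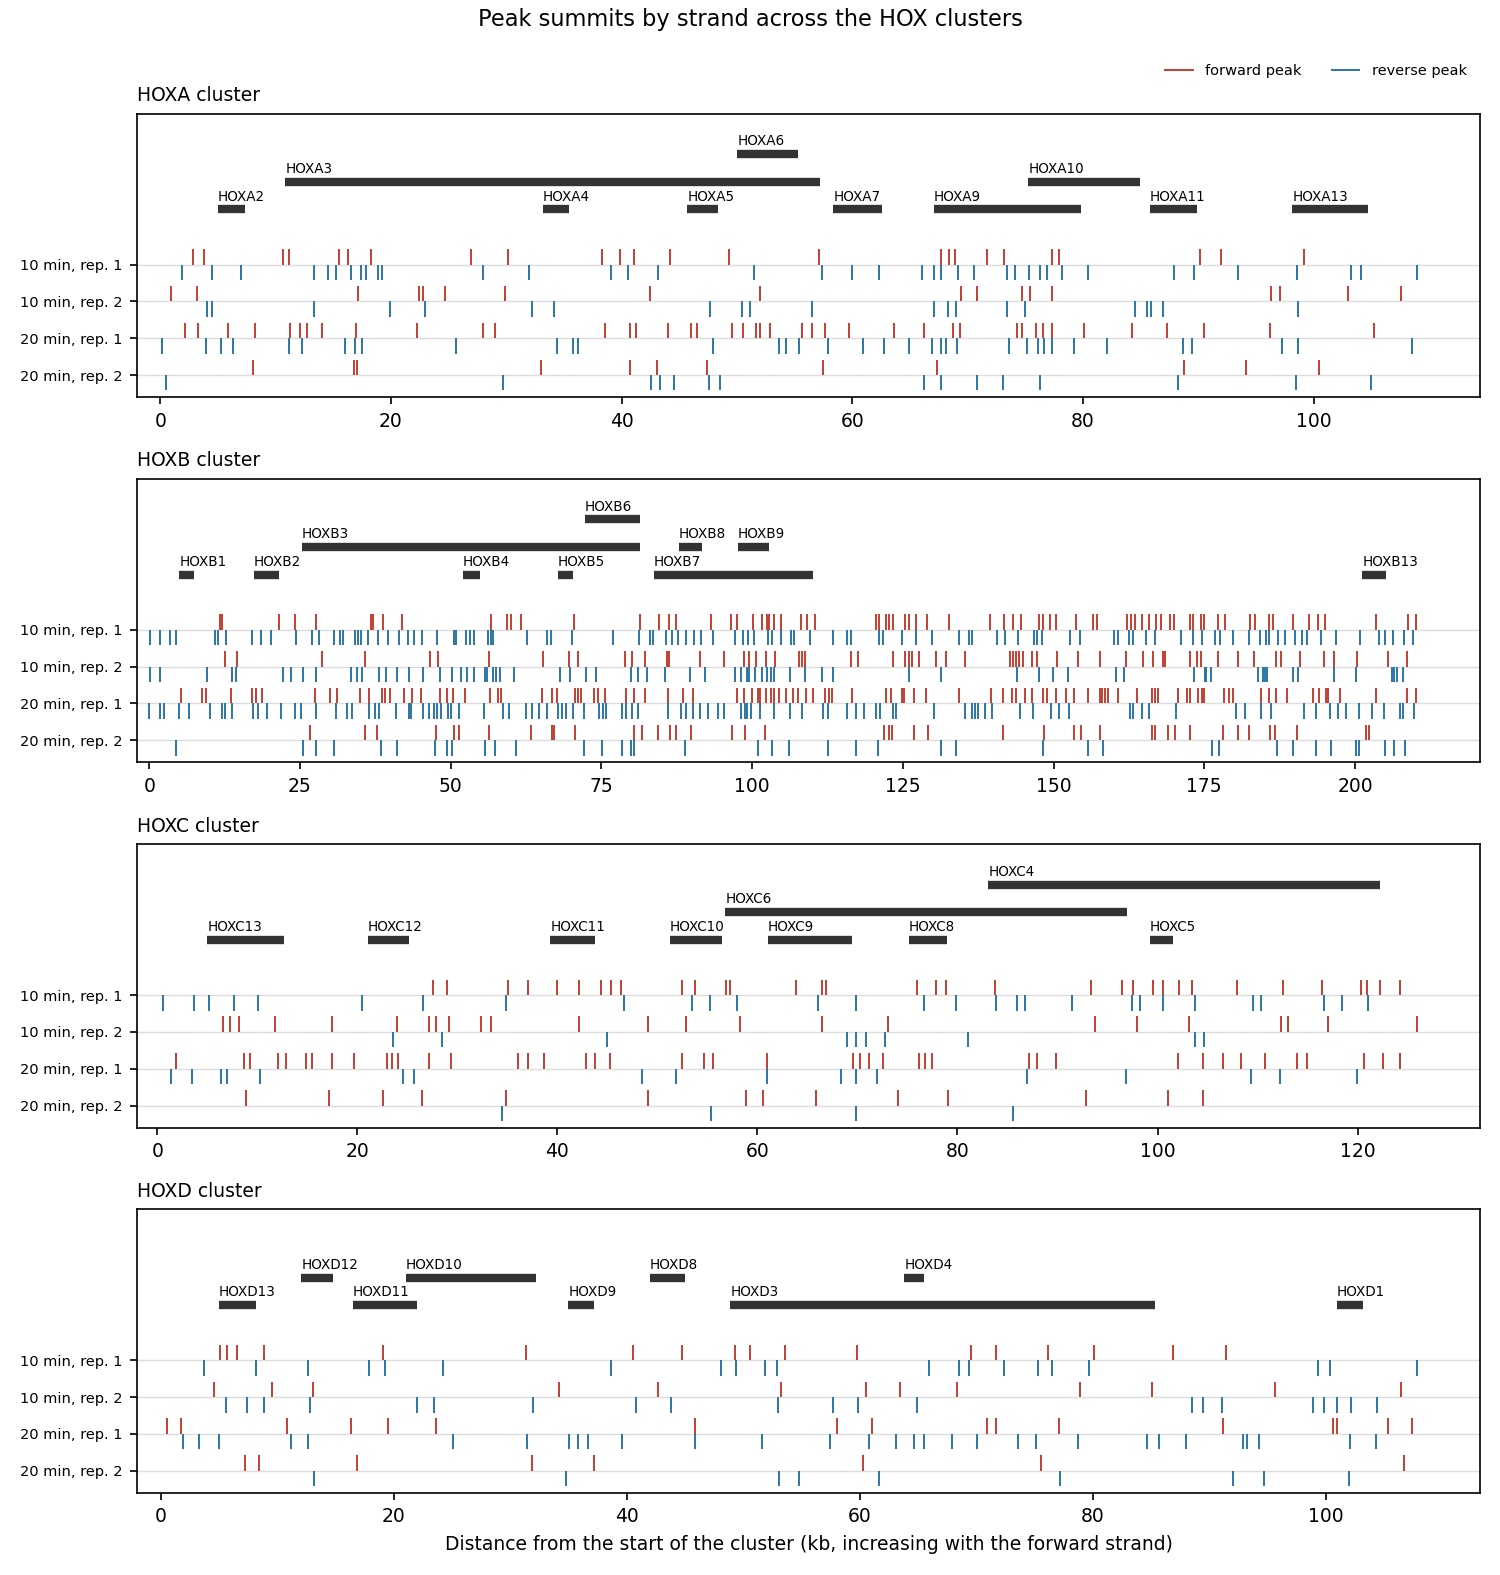
Peak summits on the forward (red, up) and reverse (blue, down) strand in each treated library, against distance in kb from the start of each HOX cluster, with gene bodies as bars. Reverse ticks are sparse in HOXC, where 1 position near HOXC9 recurs in all 4 libraries, and HOXB holds the most ticks, including the stretch between HOXB9 and HOXB13 that no member window covers.

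In the HOX clusters, 10 positions carried a same-strand peak that was replicated at both times. These were 8 in HOXB (2 forward and 6 reverse), 1 reverse peak in HOXA, 1 reverse peak in HOXC and none in HOXD. Their pooled density was 21.5 per Mb in the clusters and 16.8 per Mb in the flanks, with no test applied, and it rested mostly on HOXB. Forward and reverse positions numbered 32 and 45 in the HOXB flanks and 11 and 10 in those of HOXA. They numbered 11 and 21 in the HOXC flanks and 2 and 2 in those of HOXD. HOXB3 held 4 of the reverse positions, and the others of HOXB lay in the HOXB7 and HOXB9 bodies.

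At the HOXC position the 4 summits fell at 54397455, 54397443, 54397426 and 54397460 on chromosome 12, within 34 bp of each other, in the intron of HOXC6 printed above. The summits held 11 and 17 fragments in the CPT10 replicates and 17 and 15 in the CPT20 replicates, with −log10 q of 5.57, 14.5, 11.98 and 10.9. It is the position of the HOX clusters whose summits lay closest together. Of 17813 such recurring positions in the genome, 1.99% had summits within the same distance, and the median range was 374 bp. The median over the 10 HOX positions was 398.5 bp. The HOXC position was picked as the tightest of these 10, so the share of 1.99% is not a test of it. The position also overlapped a longer protein-coding gene model of the annotation, ENSG00000273049. In HOXA the recurring reverse peak lay in HOXA13, with summits within 151 bp and 15, 7, 13 and 8 fragments. The reverse position at the 10 min HOXB9 site had summits spread over 1010 bp.

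The stretch of 81.19 kb between HOXB9 and HOXB13 held 103, 65.3, 94.8 and 41.9 peaks per 100 kb in the 4 libraries. Forward peaks numbered 44, 35, 46 and 21 there and reverse peaks 40, 18, 31 and 13, so forward peaks were the more frequent in each library, whereas within the HOXB windows reverse peaks were.

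The 5' ends of the HOX genes showed no excess of peaks in these counts. Within 1 kb of them lay 42, 29, 47 and 16 peaks, at 0.988, 0.955, 0.894 and 0.906 times the density of the rest of the clusters (adjusted p = 1 in each library, exact binomial tests). The mean log2 ratio was −0.10 ± 0.07 (SD, n = 4), against 0.27 ± 0.16 for the same measure over all protein-coding genes. The HOX value was the lower in all 4 libraries, by −0.37 ± 0.21 on the log2 scale, and the exact sign-flip p of 0.12 was again the smallest possible.

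Genes that act with or on the HOX clusters were counted from fixed lists. Of 9 TALE cofactors (the PBX, MEIS and PKNOX partners of HOX proteins on DNA) and 8 ParaHox and caudal genes, none was called against its flanks and none had a replicated site. Of 10 Polycomb repressive complex 2 genes, RBBP4 and EZH2, its histone-binding and methyltransferase subunits, had a site at 20 min. Of 12 Polycomb repressive complex 1 genes, PHC2 and BMI1 had one at 20 min. Of 9 Trithorax and MLL complex genes, ASH2L had one at 20 min. Among all protein-coding genes the share at 20 min was 11%, and the lists were not tested against it. The weaker replicate of the EZH2 site reached a −log10 q of 3.31 and of the BMI1 site 2.57. None of these genes was called against its flanks in all 4 libraries.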

How the data were processed

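END-seq peak lists of 4 treated libraries (CPT10 and CPT20, 2 replicates each) were analysed. Per the study's methods, the authors trimmed reads with Trim Galore, aligned them to hg19 with Bowtie2, filtered pairs with SAMtools, split them by strand and called peaks with MACS2 separately for each library's strands, giving it the Ctrl library for comparison and switching off the local background. In each list the authors deposited a fold enrichment (a linear ratio), −log10 p-values, −log10 q-values and a score that repeats the latter multiplied by 10 and cut to whole numbers. The deposited fold values lay on a grid that gave whole summit heights and 1 constant expected height per list, so no position-specific control signal remained in them, and spike-in scaling does not enter the lists. Read totals were not used.

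Summits were counted in Python 3.11.15 with numpy 2.4.6, scipy 1.17.1 and pandas 2.3.3, on GENCODE release 44 mapped to GRCh37 (hg19), with non-N bases as length. A pseudocount of 0.5 was added to observed and expected numbers for single genes and windows. Tests were exact (binomial with Clopper-Pearson intervals, Fisher, sign-flip and permutation over libraries) with Benjamini-Hochberg adjustment. Of these, the single-gene binomial call was tried on simulated counts that carried counting error only. Peak pairing, the sign-flip test and the permutation test were checked on small inputs with known answers. Named genes were members with a replicated site, the members of highest and lowest mean peak density in each cluster, and any called member. The members, lists and rules were chosen with earlier results of these data known. A further annotated HOX gene of the clusters was not analysed here, and the part of its window outside the members' windows counted in neither cluster nor flanks. The 120 kb windows were added after seeing the data. Alternatives changed the q threshold, list length, gene window, flanks, measure, GC weighting, site overlap and libraries. The 10 min sites of the Polycomb repressive complex 1 list are not reported here.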

Additional observations from a re-analysis of the deposited data

Results flagged for a closer look

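The 4 clusters together had strand balances of opposite sign at the 2 times. They were −0.02 and −0.45 in the CPT10 replicates and 0.16 and 0.15 in the CPT20 replicates, a difference (CPT20 minus CPT10) of 0.39 with an exact permutation p of 0.33, the smallest that 2 against 2 libraries allow, so the difference passed no test. The HOXD10 window likewise lay below its flanks in both CPT10 replicates and above them in both CPT20 replicates, with a difference of 0.88 between the mean log2 ratios that was not tested. It rests on 5 and 4 peaks at 10 min and 8 and 4 at 20 min. Only genes named by the rule were screened for such a change, so it is not particular to HOXD10. HOXA6, HOXA7, HOXB5 and HOXD9 changed sign in the same direction. The log2 ratios of HOXB5, for example, were −1.46 and −0.16 at 10 min and 0.47 and 0.23 at 20 min. The share of all protein-coding genes with such a change was not counted.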

How the results depend on the processing

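Peak counts of 15 to 139 per cluster and library limit precision, and with 4 libraries no sign-flip test can pass 0.05. Of 227 values with a direction computed under alternatives, 200 kept it and 27 did not, and the cause was not tested. HOXC stayed below its flanks and shifted to forward peaks, HOXA stayed above, and 0 members were called, under every alternative run for them. The log2 density ratio of HOXC ranged from −0.72 to −0.38 and that of HOXA from 0.17 to 0.52, and the strand balance of HOXC from 1.30 to 2.00.

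The log2 density ratio of all clusters became 0.032 with GC-weighted flanks and 0.038 with gene bodies only, and −0.24 against genic flanks (protein-coding genes with 5 kb added). For HOXB it became 0.080 with GC-weighted flanks, 0.026 by covered bases, 0.012 with flanks of 0.5 Mb and 0.078 with gene bodies only, and it ranged from −0.11 to 0.048 when 1 library was left out. For HOXD it became 0.083 with GC-weighted flanks and 0.018 with gene bodies only, and it moved down to −0.37 at a −log10 q of at least 3, −0.29 with lists of equal length and −0.51 against genic flanks, and HOXB minus HOXD became −0.0022 with GC-weighted flanks. The difference between times became −0.063 for HOXB by covered bases and −0.018 with lists of equal length, 0.17 for HOXC at a −log10 q of at least 3 and 0.047 with lists of equal length, and −0.13 for HOXD with GC-weighted flanks. With 1 library left out it ranged from −0.019 to 0.34 for all clusters, −0.046 to 0.33 for HOXB, −0.23 to 0.16 for HOXC and −0.16 to 0.48 for HOXD. The strand balance became 0.0093 for all clusters with flanks of 0.5 Mb, and for HOXA −0.16 at a −log10 q of at least 3, −0.18 with flanks of 0.5 Mb, −0.043 with gene bodies only and −0.061 with lists of equal length. With 1 library left out it ranged from −0.11 to 0.10 for all clusters and from −0.036 to 0.078 for HOXA. A reciprocal overlap of at least 50% left 0 replicated sites in the clusters and 0 members with a site at either time, and gene bodies alone left 1 member at 20 min. The share of protein-coding genes with a site at 10 min was 11.5% and became 5.63% at a −log10 q of at least 3, 5.01% with lists of equal length and 4.6% with the reciprocal overlap, which left 5.07% of 11% at 20 min. Without CPT10 replicate 2, 574 protein-coding genes were called in place of 324.

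The labels give the groups the same replicate numbers and nothing that pairs them. The study's methods list the libraries by experiment, with each condition once in each, but do not tie the experiments to these numbers. The differences between replicates correlated at 0.127 between times over the 120 kb windows. With the replicate block, the difference between times was 0.16 for all clusters (exact sign-flip p = 1) and 0.39 for HOXA (p = 0.5, the smallest possible), and no call changed. Leaving out a library was not possible for replicated sites, which need both.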
